A study of Homo sapiens with 6 samples.

Results

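Human cells assemble their mitochondrial ribosome from proteins that are encoded in the nucleus, made in the cytosol and imported. Of the 20442 genes in the count table, 78 carried a symbol of the form MRPL or MRPS followed by a number and an optional letter. These were taken as the mitochondrial ribosomal protein genes, 49 with a large-subunit (MRPL) and 29 with a small-subunit (MRPS) symbol. The mitochondrial ribosome translates the few mRNAs of the mitochondrial genome, all for subunits of the oxidative phosphorylation complexes. It shares a core of proteins with bacterial ribosomes and adds many proteins that bacteria lack. Its small subunit binds and decodes the mRNA, and its large subunit joins amino acids and passes the chain through an exit tunnel toward the inner membrane.

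The cells were T24, an established human bladder cancer line of epithelial tumor cells. They had received, 24 h earlier, either siRNA (small interfering RNA) directed at KNSTRN, a gene for a kinetochore and spindle protein (si-KNSTRN, 3 libraries), or a control siRNA (si-NC, 3 libraries). RNA-seq libraries were compared to find which transcripts differ after the knockdown. The series' design text calls the 3 libraries of a group biological replicates, all came from this 1 line, and the sources used here do not give the siRNA sequences.

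Libraries held 16386799 to 20596074 counted reads. A gene without a read could thus have a level of up to 3 reads, or 0.146 to 0.183 CPM (counts relative to library size), for counting error only. Levels elsewhere are CPM after TMM scaling. KNSTRN, the target, was read 269, 245 and 226 times in si-KNSTRN libraries 1 to 3, against 777, 663 and 762 times in si-NC libraries 1 to 3. Its level was 13.1 ± 0.821 CPM in si-KNSTRN cells and 40.5 ± 1.92 CPM in si-NC cells (SD over 3 libraries), and edgeR gave a log2 fold change of -1.62 with an adjusted p of 1.7e-11. Of the epithelial keratin genes, KRT7 averaged 1186 CPM in si-KNSTRN and 1013 CPM in si-NC cells, KRT8 1081 CPM in si-KNSTRN and 1080 CPM in si-NC cells, and KRT18 901 CPM in si-KNSTRN and 843 CPM in si-NC cells, while KRT19 had 11 to 29 reads per library and was not called. The basal and differentiated urothelial markers KRT5 and UPK3A and the adhesion gene CDH1 had 0 reads in all libraries, KRT20, UPK1B and UPK2 had at most 3, and EPCAM 8 to 18. The urothelial regulator gene PPARG was called higher, at 44.8 CPM in si-KNSTRN and 28.7 CPM in si-NC cells. FOXA1, at 7.80 CPM in si-KNSTRN and 7.62 CPM in si-NC cells, and GATA3, with 19 to 37 reads, were not called, and UPK1A had 5, 2 and 3 reads in si-KNSTRN libraries, against 21, 12 and 13 in si-NC libraries, and was called lower. The leukocyte markers PTPRC, CD3E and LYZ and the endothelial markers VWF and CDH5 had 0 to 4 reads per library. CD14 had 14 to 25 and PECAM1 6 to 25 reads per library, and neither was called. The part of any of these cell-type differences in the results was not tested.

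All 78 genes passed the filter on low counts, with 188 to 3423 reads per library and gene. By edgeR's quasi-likelihood test, calling genes at a Benjamini-Hochberg adjusted p under 0.05 among the 12650 tested, 39 of the 78 rose in si-KNSTRN cells, 14 fell and 25 were not called. The count of genes that fell was 9 without si-KNSTRN library 2 or 3. Across all genes tested, 62.5% were called, 31.2% higher and 31.3% lower. The share called higher was therefore 50% among these genes beside 31.2% in the background, and the share called lower 17.9% beside 31.3%. The median log2 fold change was 0.15 for the 78 genes and -0.01 for all genes tested, and 56 of the 78 had a value above 0. In 55 of the 78 the 3 libraries of 1 group all lay above the 3 of the other (41 with si-KNSTRN above, 14 with si-KNSTRN below), where 67.3% of all genes tested were separated in this way. The changes were small: the median absolute log2 fold change was 0.22, beside 0.28 for all genes tested, and no mitochondrial ribosomal protein gene was both called and changed by at least 2-fold, beside 6.43% of all genes tested. As these are whole-culture RNA samples, fewer cells carrying a transcript and less of it per cell cannot be told apart.

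**Figure D1:**
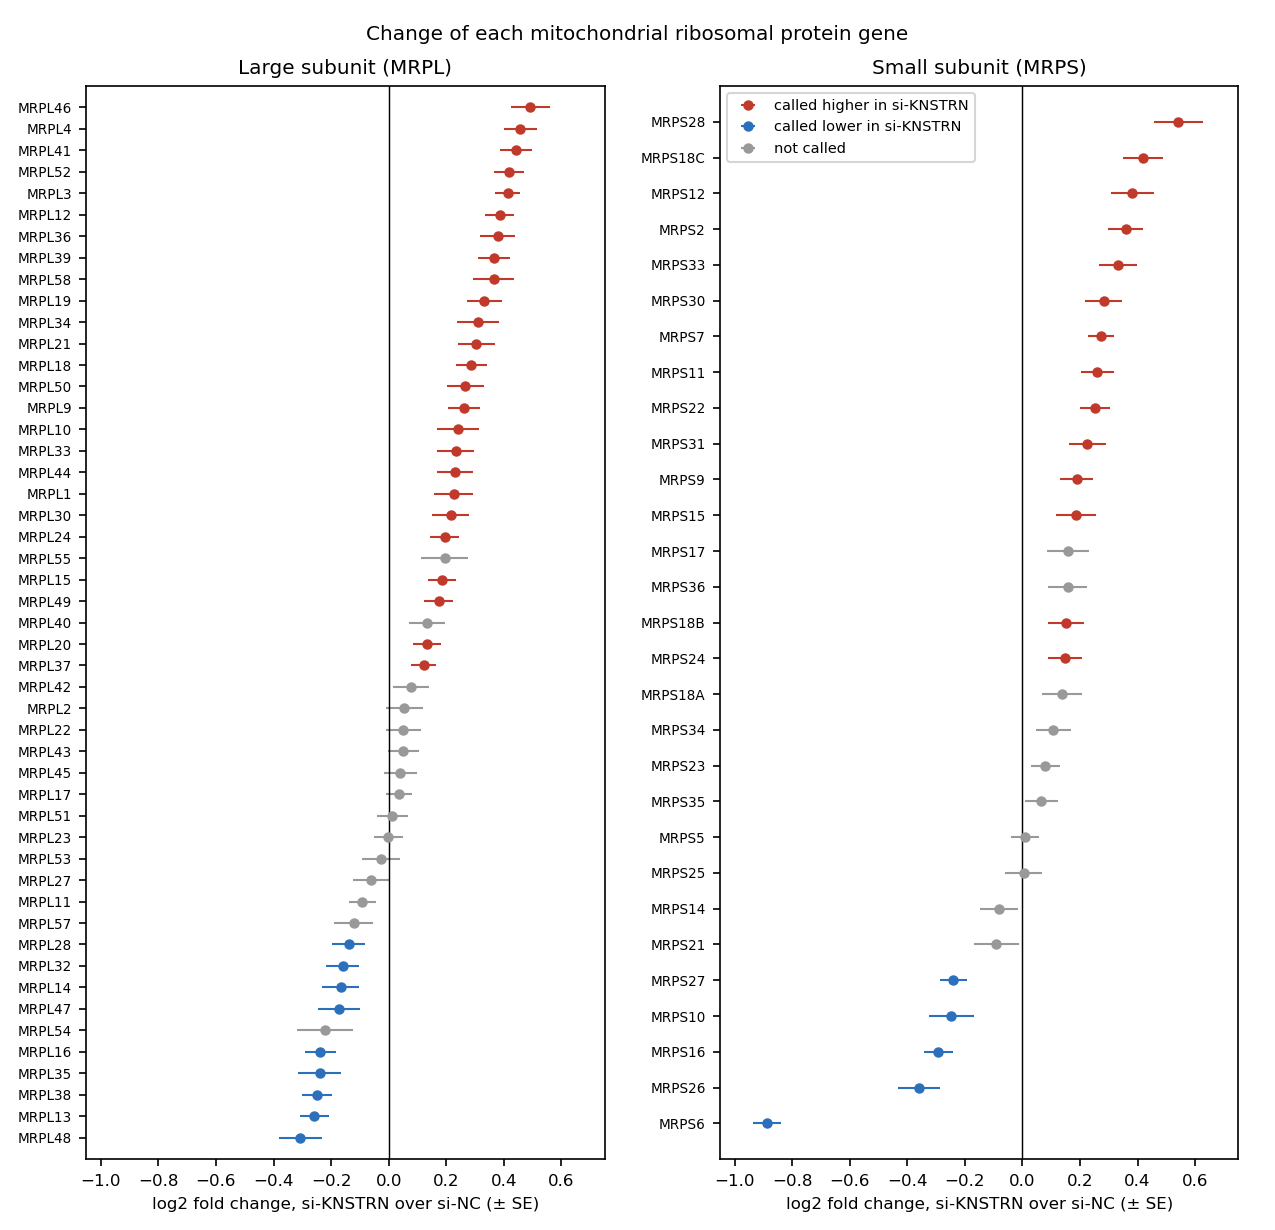
Log2 fold change of si-KNSTRN over si-NC (x axis, bars are the standard error, n = 3 per group) for the 49 large-subunit genes on the left and the 29 small-subunit genes on the right, ordered by fold change. Red points were called higher in si-KNSTRN cells, blue points lower and grey points neither: 25 red and 9 blue points in the large subunit, 14 red and 5 blue in the small and MRPS6 as the lowest point.

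The 78 genes together took a larger share of the reads in every si-KNSTRN library. They took 0.434%, 0.424% and 0.435% of the reads in si-KNSTRN libraries 1 to 3, against 0.395%, 0.395% and 0.391% in si-NC libraries 1 to 3. The groups did not overlap. On the log2(CPM + 0.5) scale, the median of the 78 genes lay 0.15, 0.11 and 0.14 above the si-NC mean in si-KNSTRN libraries 1 to 3, and 0.00, 0.01 and -0.02 from it in si-NC libraries 1 to 3. In the same libraries the summed level of the cytosolic ribosomal protein genes, which build the ribosomes of the cytosol, was 68702 ± 4963 CPM in si-KNSTRN cells and 84901 ± 3451 CPM in si-NC cells (SD, n = 3 each).

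**Figure D2:**
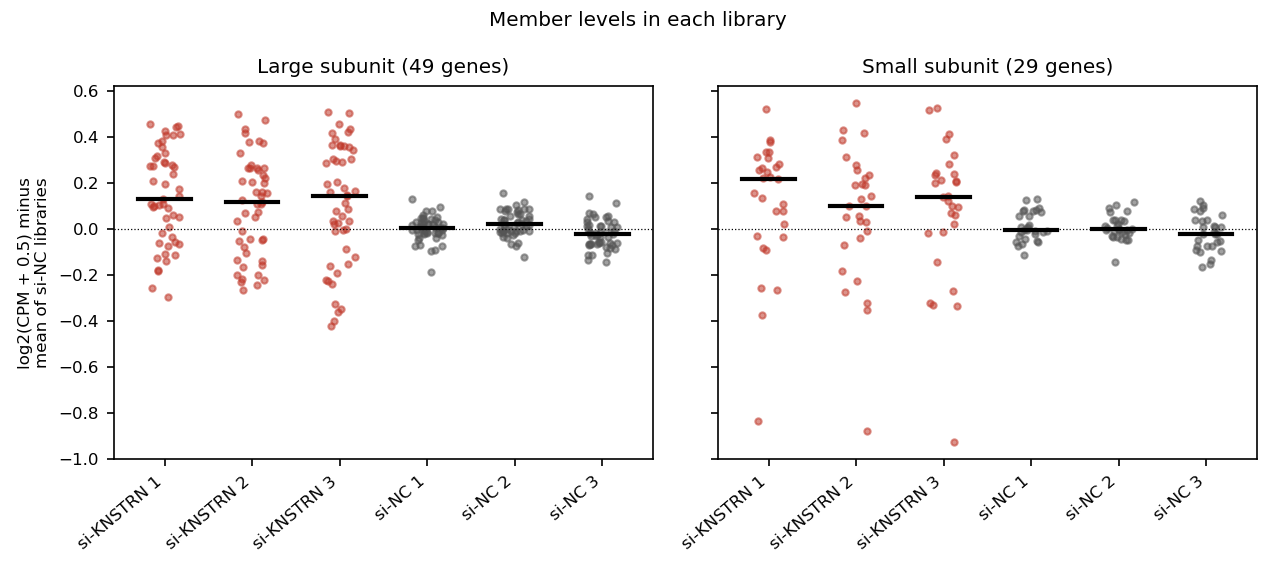
Level of each gene in each library as log2(CPM + 0.5) minus its mean over the si-NC libraries (y axis), for the large subunit on the left and the small subunit on the right, with 1 point per gene and a bar at the median. The bars of the si-KNSTRN libraries lie above 0 in both subunits, those of the si-NC libraries lie near 0, and the lowest point in each si-KNSTRN library of the small-subunit panel is MRPS6.

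Both subunits held genes that rose and genes that fell. In the large subunit 25 of 49 genes were called higher in si-KNSTRN cells and 9 lower, with a median log2 fold change of 0.13. Those lower were 5 without si-KNSTRN library 2 and 4 without si-KNSTRN library 3. In the small subunit 14 of 29 were higher and 5 lower, with a median of 0.15. Symbols do not always give the position of a protein: those of MRPS18A and MRPS30 sit in the large subunit, and MRPS36 is now known as a protein of the 2-oxoglutarate dehydrogenase complex. Counted by position, 26 of 51 large-subunit genes were higher and 9 lower, and 13 of 26 small-subunit genes were higher and 5 lower. The 46 genes whose protein has a bacterial counterpart held 25 higher and 10 lower genes (median 0.19). The 31 genes without one held 14 higher and 4 lower (median 0.12). Beside these counts, 31.2% of all genes tested were called higher and 31.3% lower. Neither the difference between the subunits nor that between these classes was tested.

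Summed over genes, the large-subunit level was 2927, 2830 and 2867 CPM in si-KNSTRN libraries 1 to 3, against 2672, 2701 and 2612 CPM in si-NC libraries 1 to 3, a ratio of group means of 1.08. The small-subunit sum was 1399, 1368 and 1379 CPM in si-KNSTRN libraries, against 1337, 1330 and 1319 CPM in si-NC libraries, a ratio of 1.04. Both sums were higher in every si-KNSTRN library than in any si-NC library. The small-to-large ratio was 0.478, 0.483 and 0.481 in si-KNSTRN libraries and 0.50, 0.493 and 0.505 in si-NC libraries, so that it was lower in si-KNSTRN cells without overlap. With MRPS6 left out, the ratio by symbol was 0.463, 0.468 and 0.467 in si-KNSTRN libraries. In si-NC libraries it was 0.472, 0.464 and 0.474, and the groups overlapped. That overlap was seen with subunits taken by symbol, and is not shown for subunits taken by position. The small-subunit sum without MRPS6 was 1340 ± 14.7 CPM in si-KNSTRN cells and 1250 ± 10.9 CPM in si-NC cells (SD, n = 3 each), a ratio of 1.07. These sums were described and not tested.

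MRPS6, which encodes a protein of the small-subunit platform, showed the largest change of the 78 genes. It was read 862, 762 and 758 times in si-KNSTRN libraries 1 to 3, against 1551, 1253 and 1453 in si-NC libraries 1 to 3. Its level was 43.6, 42.2 and 40.8 CPM in si-KNSTRN libraries and 76.4, 77.9 and 79.8 CPM in si-NC libraries, far apart relative to the spread within each group. The log2 fold change was -0.89 (SE 0.05, edgeR adjusted p = 2.4e-10), and no other gene of the set fell by more than 0.36. MRPS6 (chromosome 21, 34073578 to 34143030, plus strand, GRCh38) shares a locus and its strand with SLC5A3, the gene of a sodium-coupled myo-inositol transporter: 176 of the 990 exon bases of MRPS6 also lie in exons of SLC5A3. SLC5A3 fell as well, to 126, 136 and 110 reads in si-KNSTRN libraries, against 615, 474 and 648 in si-NC libraries (log2 fold change -2.27, SE 0.10, edgeR adjusted p = 1.6e-11). Reads over the shared bases cannot be assigned to either gene from these counts, and their part in the fall of MRPS6 was not tested.

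**Figure D3:**
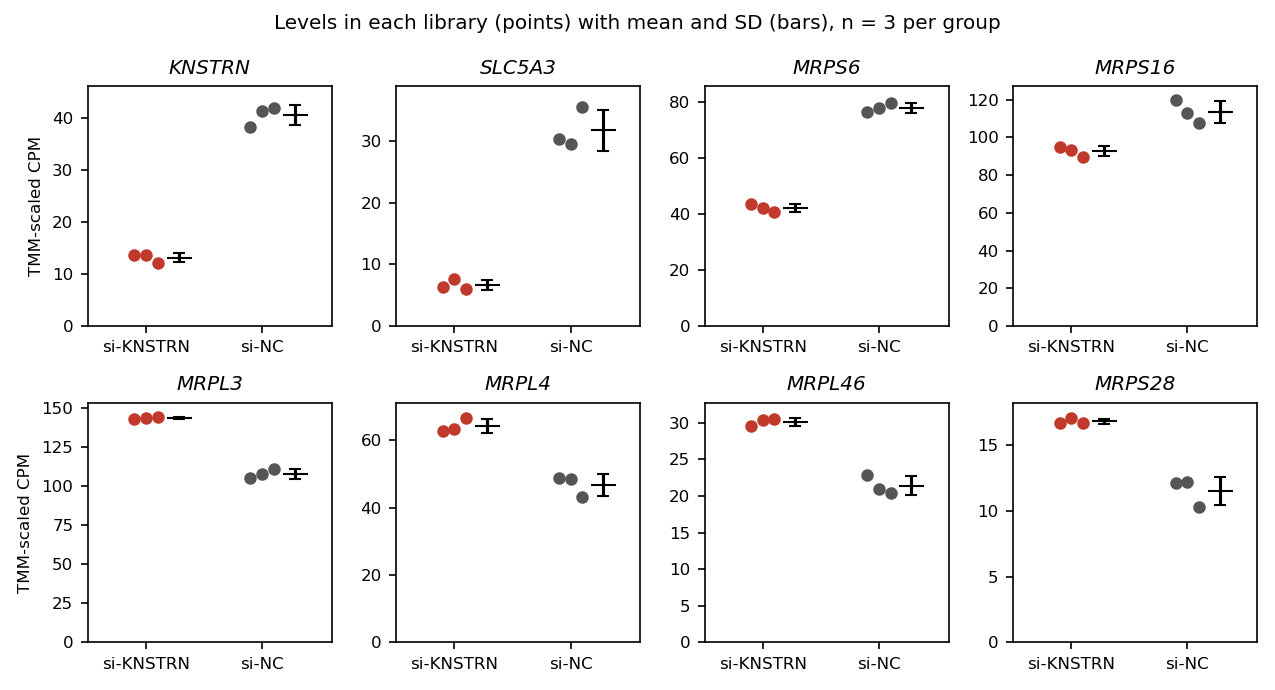
TMM-scaled CPM (y axes, starting at 0) of KNSTRN, SLC5A3 and 6 mitochondrial ribosomal protein genes in each library (points), with the mean and SD of 3 libraries per group beside them. KNSTRN, SLC5A3, MRPS6 and MRPS16 are lower in all si-KNSTRN libraries than in any si-NC library, and MRPL3, MRPL4, MRPL46 and MRPS28 are higher.

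Core proteins of the large subunit, shared with bacteria, moved in both directions. MRPL3, the gene of a protein that binds the large-subunit rRNA, had 143, 144 and 144 CPM in si-KNSTRN libraries 1 to 3, against 105, 108 and 111 CPM in si-NC libraries 1 to 3 (log2 fold change 0.41, SE 0.04, edgeR adjusted p = 5.3e-07). MRPL4, whose bacterial counterpart lines part of the exit tunnel, had 62.9, 63.2 and 66.6 CPM in si-KNSTRN libraries, against 48.6, 48.6 and 43.1 CPM in si-NC libraries (0.46, SE 0.06, adjusted p = 2.7e-06). All si-KNSTRN libraries lay above all si-NC libraries for both. MRPL36, a small zinc-binding protein gene, averaged 38.1 ± 0.223 CPM in si-KNSTRN cells and 29.3 ± 0.812 CPM in si-NC cells (SD, n = 3 each; log2 fold change 0.38). Other core genes fell. MRPL13 (log2 fold change -0.26, SE 0.05, edgeR adjusted p = 0.00034) and MRPL16 (-0.24, adjusted p = 0.00085), the gene of a protein beside the tRNA-binding site, were lower in all si-KNSTRN libraries than in any si-NC library. MRPL35, MRPL32 and MRPL14 had log2 fold changes of -0.24, -0.16 and -0.17 and were called lower, each with separated groups. The call of MRPL35 was lost without si-KNSTRN library 3 (adjusted p = 0.057). Those of MRPL32 and MRPL14 were lost with si-KNSTRN library 2 or 3 or si-NC library 1 or 2 left out, and that of MRPL14 also without si-NC library 3, with adjusted p up to 0.082 and 0.17 over the alternatives.

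The stalk of the large subunit recruits translation factors. MRPL12, its multi-copy component, had 87.7, 91.4 and 96.4 CPM in si-KNSTRN libraries 1 to 3, against 72.7, 69.5 and 68.5 CPM in si-NC libraries 1 to 3 (log2 fold change 0.39, SE 0.05, edgeR adjusted p = 4.4e-06). The groups were separated. Of the other stalk and stalk-base genes, MRPL10 was called higher at 0.24, with overlapping groups and a call lost without si-NC library 3 (adjusted p = 0.055). MRPL11, MRPL53 and MRPL54 were not called, at -0.09, -0.03 and -0.22.

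The central protuberance, which in mitochondria is built largely of proteins that bacteria lack, held changes in both directions. MRPL46 had 29.5, 30.4 and 30.5 CPM in si-KNSTRN libraries 1 to 3, against 22.9, 21 and 20.4 CPM in si-NC libraries 1 to 3 (log2 fold change 0.49, SE 0.07, edgeR adjusted p = 8.3e-06). MRPL58, a ribosome-bound peptidyl-tRNA hydrolase that rescues stalled ribosomes, was higher by 0.36. MRPL38 and MRPL48 were lower: MRPL38 had 57.3, 60.5 and 60.4 CPM in si-KNSTRN libraries, against 72.7, 72.7 and 66.3 CPM in si-NC libraries (-0.25, SE 0.05, adjusted p = 0.00046), and MRPL48 had 20.8, 21.1 and 18.8 CPM in si-KNSTRN libraries, against 23.7, 24.4 and 27.0 CPM in si-NC libraries (-0.31, SE 0.07, adjusted p = 0.0019). None of these 4 genes had overlapping groups. MRPL40, the remaining gene of this neighbourhood, was not called (0.13). These neighbourhood lists, like those of the stalk, tunnel rim, head, platform and body, were written after the values had been seen, and no test was made of them.

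Of the mitochondrion-specific large-subunit genes outside the central protuberance, MRPL41 and MRPL52 rose most. MRPL41 had 53.1, 55.4 and 53.9 CPM in si-KNSTRN libraries 1 to 3, against 40.9, 40.5 and 38.1 CPM in si-NC libraries 1 to 3 (log2 fold change 0.44, SE 0.06, edgeR adjusted p = 3.0e-06). MRPL52 had 72.8, 69.0 and 71.5 CPM in si-KNSTRN libraries, against 51.6, 57.2 and 51.3 CPM in si-NC libraries (0.42, SE 0.05, adjusted p = 3.3e-06). Neither gene's groups overlapped. MRPL39 was higher by 0.37. Around the rim of the exit tunnel, 1 of 6 genes was called higher and 1 lower, where 62.5% of all genes tested were called. With so few genes, nothing is read from that count. MRPL24 was higher (0.20) and MRPL47 lower (-0.17, adjusted p = 0.0497). The groups of MRPL47 overlapped and its call was lost in 8 of 14 alternative fits, among them those without si-KNSTRN 2, si-KNSTRN 3, si-NC 1 or si-NC 3. MRPL17, MRPL22, MRPL23 and MRPL45 were not called, with log2 fold changes of at most 0.05. MRPL23 had 93.3, 99.1 and 95 CPM in si-KNSTRN libraries and 101, 95 and 91.3 CPM in si-NC libraries, a log2 fold change with a 95% interval of -0.10 to 0.10.

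In the small subunit, the largest rise was that of MRPS28, with 16.7, 17.1 and 16.7 CPM in si-KNSTRN libraries 1 to 3, against 12.2, 12.2 and 10.3 CPM in si-NC libraries 1 to 3 (log2 fold change 0.54, SE 0.09, edgeR adjusted p = 4.0e-05). It was also the gene with the fewest reads of the set. MRPS12, the counterpart of a bacterial decoding-site protein, had 33.5, 34.5 and 31.9 CPM in si-KNSTRN libraries, against 27.1, 26.9 and 22.7 CPM in si-NC libraries (0.38, SE 0.07, adjusted p = 0.00030). MRPS2, MRPS7 and MRPS33 were higher by 0.36, 0.27 and 0.33. For all 5 genes the si-KNSTRN libraries lay above every si-NC library. MRPS7 belongs to the head, where MRPS9 (0.19) and MRPS24 (0.15) were also called higher and MRPS10 lower (-0.25), while MRPS14 was not called. The call of MRPS10 was lost without si-KNSTRN library 2 (adjusted p = 0.061), and that of MRPS24 with any 1 of the 6 libraries left out. In the platform, where the MRPS6 protein sits, MRPS11 (0.26), MRPS15 (0.19) and MRPS18C (0.42) were called higher and MRPS21 (-0.09) was not called, and MRPS15 lost its call when si-KNSTRN 1, si-NC 1 or si-NC 3 was left out.

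The genes of the MRPS18 family encode paralogous proteins that occupy different places. MRPS18C, which takes the place of the bacterial protein, had 44.8, 46.4 and 51.2 CPM in si-KNSTRN libraries 1 to 3, against 32.8, 35.2 and 38.6 CPM in si-NC libraries 1 to 3 (log2 fold change 0.42, SE 0.07, edgeR adjusted p = 7.6e-05). MRPS18B was called higher at 0.15, in 8 of 14 alternative fits as well, with the call lost without si-KNSTRN 1, si-KNSTRN 2, si-NC 1 or si-NC 3. MRPS18A, the paralog of the large subunit, had a log2 fold change of 0.14 and was not called. Of the 1643 exon bases of MRPS18C, 1296 also lie in exons of ABRAXAS1 on the other strand, and the sources used here do not say whether counting used strand.

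Besides MRPS6, 4 small-subunit genes fell. MRPS16, a core protein of the body, had 94.8, 93.6 and 89.7 CPM in si-KNSTRN libraries 1 to 3, against 120, 113 and 108 CPM in si-NC libraries 1 to 3 (log2 fold change -0.29, SE 0.05, edgeR adjusted p = 8.1e-05). MRPS26 had 26.4, 26.9 and 27.5 CPM in si-KNSTRN libraries, against 37.7, 34.5 and 31.3 CPM in si-NC libraries (-0.36, SE 0.07, adjusted p = 0.00038). Both were separated, with the wider spread in si-NC libraries. MRPS27, an RNA-binding protein of the pentatricopeptide repeat family, was lower as well (-0.24, SE 0.05, adjusted p = 0.00026), and MRPS10, described above, completes the list.

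Per length of transcript, the 78 genes spanned a wide range in both groups. Levels ran from 5.76 to 156 RPKM (read counts scaled to library size and transcript length) in si-KNSTRN cells and from 6.36 to 156 RPKM in si-NC cells, with medians of 32.8 RPKM in si-KNSTRN and 31.9 RPKM in si-NC cells. The highest were MRPL23 (156 ± 4.86 RPKM in si-KNSTRN and 156 ± 8.04 RPKM in si-NC cells), MRPL51 (133 RPKM in si-KNSTRN and 132 RPKM in si-NC cells), MRPL43 (130 RPKM in si-KNSTRN and 126 RPKM in si-NC cells) and MRPL15 (136 RPKM in si-KNSTRN and 120 RPKM in si-NC cells). In si-KNSTRN cells, MRPL51, MRPL43 and MRPL15 differed by less than their SD, which was 7.69 to 8.5 RPKM. The lowest were MRPL50 (7.65 RPKM in si-KNSTRN and 6.36 RPKM in si-NC cells), MRPS25 (6.59 RPKM in si-KNSTRN and 6.57 RPKM in si-NC cells) and MRPL35 (5.76 RPKM in si-KNSTRN and 6.82 RPKM in si-NC cells). The transcripts chosen for MRPL50, MRPS25 and MRPL35 span 3332, 4586 and 3727 bases, of which 2833, 3923 and 3126 are 3' UTR. Their place at the low end depends on that choice. By CPM the lowest was MRPS28, at 16.8 in si-KNSTRN and 11.6 in si-NC cells. The rank correlation of the levels between si-KNSTRN and si-NC cells was 0.97 over the 78 genes, as a description. Replicates varied little, with a median coefficient of variation of 4.12% in si-KNSTRN and 4.74% in si-NC libraries. The log2 fold changes had rank correlations of -0.09 with transcript length, 0.03 with GC content and -0.07 each with 3' UTR length and mean level, over the same genes and libraries.

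The genes lie on 21 chromosomes, and by RefSeq coordinates 15 of the 78 overlap the span of another tested gene. Of these 15, 8 were higher, 3 lower and 4 not called, where 62.5% of all genes tested were called, so that nothing particular to overlap is read from this. MRPS6 aside, the overlaps were with HDGF (MRPL24) on the same strand and with genes on the opposite strand: SSBP3 (MRPL37), OAZ3 (MRPL9), NR2C2 (MRPS25), ACTL6A (MRPL47), ABRAXAS1 (MRPS18C), NDUFS6 (MRPL36), KLC4 (MRPL2), TMEM63B (MRPL14), SEMA4G (MRPL43), SYVN1 (MRPL49), EME2 (MRPS34), GGA3 and MIF4GD (MRPS7) and ABHD8 (MRPL34). Besides MRPS18C, the most exon bases were shared by MRPS25 (756 of 4586) and MRPL43 (738 of 2922), neither of which was called. Without these 15 genes, 31 were higher and 11 lower. MRPL37 (log2 fold change 0.12) was no longer called without si-KNSTRN 1, si-KNSTRN 3, si-NC 2 or si-NC 3. No gene had 90% or more of its 50-base windows in another gene. MRPS24 came nearest, with 84.8% of its windows in other genes, most often the read-through gene URGCP-MRPS24, which had 0 or 1 read per library. MRPL46, MRPL38 and MRPL12 had 69.7%, 67.0% and 66.6% of their windows in other GENCODE genes, and MRPL53 50.2%, most often in CCDC142.

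Several of these genes start close to a gene on the other strand. By GENCODE gene starts, 27 of the 78 lay within 1000 bases of a tested gene that runs the other way, in 26 pairs, 1 of which joins MRPL46 and MRPS11, 34 bases apart. In 12 pairs the GENCODE models overlap at their starts, so that reads there could belong to either gene if strand was not used. In 10 pairs both genes were called: both higher in 7, the mitochondrial ribosomal gene higher and its partner lower in 2, and the reverse in 1. As 62.5% of all genes tested were called, nothing particular to these pairs is read from that count. In the MRPL36 pair, the partner NDUFS6, a complex I subunit gene starting 34 bases away, had a log2 fold change of 0.41 beside 0.38 for MRPL36. MRPL18 and the chaperonin gene TCP1, 63 bases apart, had 0.29 and 0.34, and MRPL21 and the helicase gene IGHMBP2, 7 bases apart, had 0.30 and 0.45. MRPL46 and MRPS11 had 0.49 and 0.26. In the opposite pairs, MRPL41 had 0.44 and PNPLA7 -1.33, and MRPL50 0.27 and ZNF189 -0.21. Across the 26 pairs the Spearman correlation was 0.21 and the Pearson correlation 0.02, values from the same 6 libraries given as a description.

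Promoter sequence was available from RefSeq (GRCh38.p14, 250 bases before to 50 after the start) for 70 of the 78 genes and 10386 tested genes. It was searched on both strands for short forms of the motifs of factors known to act at promoters of nuclear genes for mitochondrial proteins. The ETS form CCGGAAGT was found in 12 of the 70 promoters (17.1%), beside 10.0% of tested genes and 4.95% of the 27305 genes of the table. The NRF1 form GCGCANGCG was found in 14 (20%), beside 17.0% and 9.02%. The YY1 form AAGATGGCG, whose letters include a start codon and can therefore lie over the beginning of a coding sequence, was found in 13 (18.6%), beside 4.69% and 2.14%. The CCAAT box was found in 23 (32.9%), beside 43.3% and 39.7%. Genes with a motif moved both ways: with the ETS form 5 were higher and 3 lower, with the NRF1 form 9 and 1, and with the YY1 form 7 and 3, where 31.2% of all genes tested were called higher and 31.3% lower. The median log2 fold change of members with the form, and of those without it, was 0.06 and 0.16 for ETS, 0.16 and 0.15 for NRF1, and 0.15 and 0.16 for YY1. Of the regulators, YY1 itself was higher by 0.31 and the ETS-family gene GABPA had a log2 fold change of -0.36 and was called lower.

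The promoters of 4 genes that rose and of MRPS6 are printed below as a selection. Capitals mark a match on either strand, so that ACTTCCGG, CGCCTGCGC and CGCCATCTT are the ETS, NRF1 and YY1 forms read from the other strand. MRPL3 (chr3:131502922-131503221, minus strand) holds 1 ETS form, MRPL36 (chr5:1799788-1800087, minus strand) an NRF1 and a YY1 form, MRPL46 (chr15:88467339-88467638, minus strand) 1 YY1 form, and MRPL52 (chr14:22829637-22829936, plus strand) 1 ETS and 2 YY1 forms. MRPS6 (chr21:34073328-34073627, plus strand) holds none of these letters in this window. The selection does not stand for all members. Among genes called lower and not printed, MRPL38 holds an ETS and a YY1 form, and MRPL16 and MRPL47 an ETS form. MRPS10 and MRPL32, also lower, hold a YY1 form and MRPL14 an NRF1 form. The promoters of MRPL4, MRPL41 and MRPL12, which rose, hold no ETS, NRF1 or YY1 form. A match is a description of the sequence and not a site shown to be used.
MRPL3: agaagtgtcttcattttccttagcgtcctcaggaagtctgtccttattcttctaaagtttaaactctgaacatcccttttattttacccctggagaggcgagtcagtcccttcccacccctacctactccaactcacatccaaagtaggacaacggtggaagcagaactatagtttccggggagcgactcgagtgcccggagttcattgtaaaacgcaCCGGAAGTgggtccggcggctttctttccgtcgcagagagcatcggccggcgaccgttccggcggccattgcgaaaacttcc
MRPL36: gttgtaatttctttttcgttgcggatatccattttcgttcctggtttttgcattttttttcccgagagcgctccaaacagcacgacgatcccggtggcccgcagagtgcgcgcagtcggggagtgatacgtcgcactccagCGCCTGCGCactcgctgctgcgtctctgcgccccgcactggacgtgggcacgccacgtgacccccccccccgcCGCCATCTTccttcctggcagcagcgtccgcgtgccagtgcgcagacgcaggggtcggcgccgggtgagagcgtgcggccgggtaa
MRPL46: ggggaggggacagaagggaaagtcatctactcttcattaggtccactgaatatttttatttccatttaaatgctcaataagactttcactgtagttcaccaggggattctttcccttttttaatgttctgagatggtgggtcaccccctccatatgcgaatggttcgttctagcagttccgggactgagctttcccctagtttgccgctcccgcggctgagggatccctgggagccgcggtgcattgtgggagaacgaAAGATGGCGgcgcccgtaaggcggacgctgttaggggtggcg
MRPL52: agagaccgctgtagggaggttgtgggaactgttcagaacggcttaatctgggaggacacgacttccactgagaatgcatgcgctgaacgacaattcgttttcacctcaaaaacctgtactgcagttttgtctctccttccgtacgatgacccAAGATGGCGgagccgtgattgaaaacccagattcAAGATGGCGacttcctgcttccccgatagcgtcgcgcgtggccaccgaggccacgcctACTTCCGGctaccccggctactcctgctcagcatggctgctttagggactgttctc
MRPS6: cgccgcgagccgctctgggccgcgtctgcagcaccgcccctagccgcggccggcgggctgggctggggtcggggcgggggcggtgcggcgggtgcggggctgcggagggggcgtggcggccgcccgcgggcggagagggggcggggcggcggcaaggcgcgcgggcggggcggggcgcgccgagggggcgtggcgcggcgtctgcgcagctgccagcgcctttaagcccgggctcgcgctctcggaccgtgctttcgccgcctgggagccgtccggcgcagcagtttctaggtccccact

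Of the 14 genes called lower, 8 held the word TGAGTA in the 3' UTR, and of the 38 called higher that could be searched, 6 held it. The word was chosen after the values of these libraries had been seen, since it had come up in an earlier search across all genes tested, so that its counts here are a description and no independent evidence. Of 12013 genes tested whose 3' UTR spans 50 bases or more (GENCODE release 29), 3169 held it, of which 712 were higher and 1284 lower, with a median log2 fold change of -0.11. Of the 8844 without it, 3066 were higher and 2476 lower, with a median of 0.03. Among the mitochondrial ribosomal protein genes, 75 could be searched. The 17 with the word held 6 higher and 8 lower genes and had a median of -0.12. The 58 without it held 32 higher and 6 lower genes and had a median of 0.17. In the small subunit, 4 of the 5 genes called lower had the word (MRPS6, MRPS10, MRPS16 and MRPS26, all but MRPS27). In the large subunit, 4 of 9 had it (MRPL16, MRPL28, MRPL32 and MRPL35). MRPL28, at -0.14, had overlapping groups and was not called in 9 of 14 alternative fits, among them those with any 1 si-KNSTRN library or si-NC library 1 or 2 left out. The higher genes with the word were MRPL19, MRPL36, MRPL49, MRPL50, MRPS11 and MRPS33.

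KNSTRN, the gene targeted, holds the word once in its transcript, inside its coding sequence. As the siRNA sequences are not given, it is not known whether the siRNA covers this site, and no relation of the matches to the siRNA was tested. The transcript sites below show that word in KNSTRN, then in genes that fell and, last, in 3 that rose. They are a selection. Sites of MRPL28, called lower, and of MRPL19, MRPL49 and MRPS11, called higher, are not printed. Nor are those of MRPL57, MRPS14 and MRPS17, which hold the word and were not called. Capitals mark TGAGTA with the C before it and the A after it where those extend the KNSTRN match.
KNSTRN: tacaaaccaCTGAGTAAgcaaaaatc
MRPS6: acttttgcttTGAGTAAtaaacttga
MRPS26: ccaggtcatCTGAGTAtcattaagag
MRPS16: ctcagcctcCTGAGTAgccggggagc
MRPS10: gtgggccagaTGAGTAtgtttaagtg
MRPL16: gagcagcattTGAGTAgatttctgaa
MRPL32: gaatatattaTGAGTAAactccgaaa
MRPL35, first site: ctcagcttaCTGAGTAAggatatgta
MRPL35, second site: gaagcagcaCTGAGTAAagttcaatt
MRPL36: tcagtgtaaaTGAGTAActatagaag
MRPL50: aaagtggtgCTGAGTAttcactagag
MRPS33: tgtatagattTGAGTAgctcgctgct

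MRPL35, with a log2 fold change of -0.24, was the gene with the longest match, and carried it at positions 1124 and 1315 of a 3' UTR of 3126 bases. In MRPS6, the gene that fell most, the word starts at base 406 of a 3' UTR of 434 bases. The last base of TGAGTA there is the first base of AATAAA, the signal for cleavage and polyadenylation. MRPL36 rose with TGAGTAA at position 152 of a 3' UTR of 237 bases. Genes with the word were thus called in both directions, and whether the word took part in any of these changes was not tested.

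**Figure D4:**
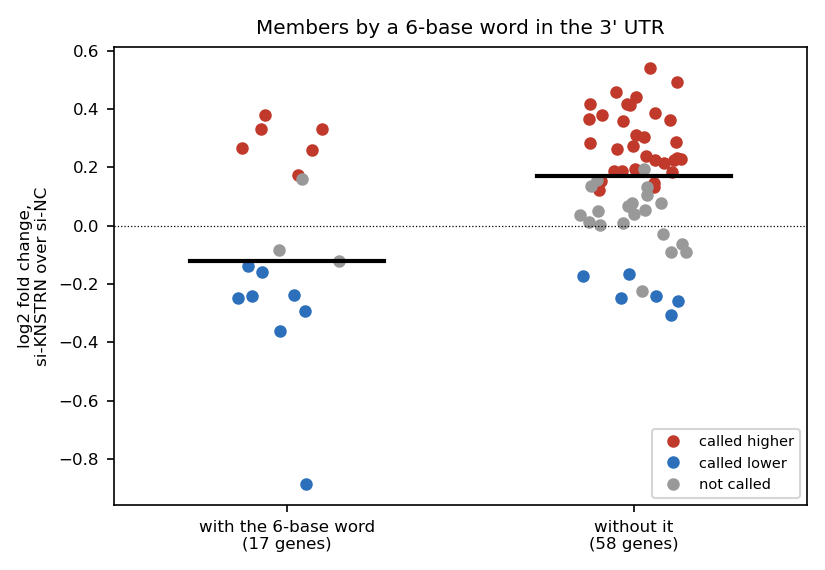
Log2 fold change of si-KNSTRN over si-NC (y axis) for the 17 searched genes with TGAGTA in the 3' UTR on the left and the 58 without it on the right, coloured by call, with a bar at the median. The medians are -0.12 with the word and 0.17 without it, and both sides hold genes called in both directions.

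Other genes of the mitochondrial translation system were described with the same calls, where 31.2% of all genes tested were higher and 31.3% lower. Of 5 further proteins of the mitochondrial ribosome that have other symbols, AURKAIP1 (log2 fold change 0.28), DAP3 (0.23) and GADD45GIP1 (0.30) were higher and PTCD3 (-0.15) lower. Of 28 tested genes of ribosome assembly and rRNA modification, 16 were higher and 4 lower, with a median of 0.18. NGRN, which takes part in the maturation of the large-subunit rRNA, averaged 159 ± 8.57 CPM in si-KNSTRN cells and 94.1 ± 4.02 CPM in si-NC cells (SD, n = 3 each; 0.76, SE 0.05, edgeR adjusted p = 2.6e-09). MPV17L2 averaged 15.2 ± 1.84 CPM in si-KNSTRN cells and 5.95 ± 0.463 CPM in si-NC cells (1.35), a change beyond 2-fold, and C1QBP was higher by 0.44. Of 19 translation factors 8 were higher and 3 lower (median 0.07). GFM1, the elongation factor that moves the ribosome along the mRNA, averaged 91.7 ± 3.15 CPM in si-KNSTRN cells and 50 ± 2.00 CPM in si-NC cells (0.87, SE 0.05, adjusted p = 3.7e-10). The release factor gene MTRF1L and the translational activator gene TACO1 were higher by 0.53 and 0.42.

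Genes that charge mitochondrial tRNAs moved in both directions, with 10 of 20 higher and 4 lower (median 0.13). The glutamyl-tRNA synthetase gene EARS2 was higher by 0.75, and the isoleucyl-tRNA synthetase gene IARS2 was lower (-0.46). Of 24 genes of mitochondrial DNA and RNA synthesis and processing, 13 were higher and 5 lower (median 0.18), with PNPT1, TFB2M and HSD17B10 higher by 0.70, 0.61 and 0.37. Of the 13 protein-coding genes of the mitochondrial genome, whose mRNAs the mitochondrial ribosome translates, 5 were higher and 8 not called (median 0.13). ND5 averaged 4026 CPM in si-KNSTRN cells and 3120 CPM in si-NC cells (0.37), and ND4 and ND2 were higher by 0.25 and 0.27. Of 9 tested regulators of mitochondrial biogenesis 5 were higher, ESRRA (0.42), PPRC1 (0.30) and YY1 among them, and 1 lower. Of 37 nuclear complex I subunit genes 16 were higher and 4 lower (median 0.11), with NDUFA6, NDUFS6 and NDUFB9 higher by 0.50, 0.41 and 0.28. Of 80 tested cytosolic ribosomal protein genes 55 were lower and 25 not called, with a median of -0.29. RPS6, RPL34 and RPL3 fell by 0.89, 0.98 and 0.74 on the log2 scale. Many cytosolic ribosomal genes have near-identical pseudogenes, and the sources used here do not say how reads with several alignments were counted.

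**Figure D5:**
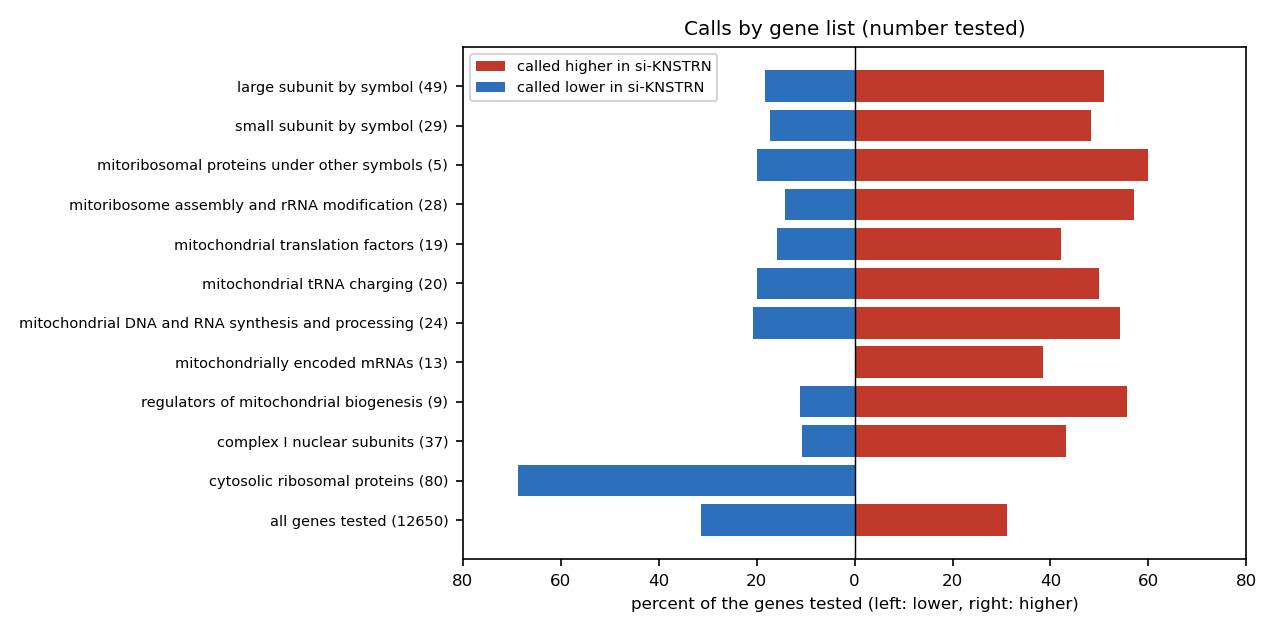
Percent of the genes tested in each list that were called lower (blue, to the left) or higher (red, to the right) in si-KNSTRN cells, with the number tested in parentheses and all 12650 genes tested in the bottom row. The large and small subunit rows reach 51.0% and 48.3% higher and 18.4% and 17.2% lower, beside 31.2% and 31.3% for all genes, and cytosolic ribosomal proteins reach 68.8% lower.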

How the data were processed

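The authors deposited 1 table of raw read counts, with genes in rows and 1 column of whole numbers for each of 6 libraries, which sum to different totals and carry no scaling. Libraries were made from total RNA with a SMARTER mRNA kit, per the labels' protocols. The tools, per the submitters' processing notes, were HISAT2 2.0.1, featureCounts, fastp 0.20.0 and FastQC 0.11.5, with GRCh38. The sources used here do not give the annotation release, the strand setting or how multi-mapping reads were counted. Of 20442 genes, 3984 had no read. Intervals and floors cover counting error only, since no molecular identifiers are named.

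From the counts, edgeR 4.0.16 (R 4.3.3) was run on all 6 libraries with filterByExpr (minimum count 10), TMM scaling and its quasi-likelihood test (two-sided, si-KNSTRN over si-NC, no further term, Benjamini-Hochberg adjustment over the genes tested). The common biological coefficient of variation was 5.47%. CPM is TMM-scaled, and RPKM divides it by the length of 1 GENCODE release 29 coding transcript per gene. The 95% interval of a fold change is 1.96 standard errors to either side. Groups and replicate numbers came from the sample titles. Replicate pairs differed by 2.16 to 10.3 chi-square per degree of freedom, so that none was merged. The test was first tested on simulated data. Coordinates came from RefSeq GRCh38.p14, in which all 78 symbols matched.

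The members and gene lists were chosen with earlier results of these data known. The genes named were, in each subunit, the 6 called with the smallest p in each direction and the 3 with the largest absolute change, those that overlap another gene, and the 3 of each pathway list with the smallest p, of which 1 is not reported here. Other genes are named where a list of 6 or fewer was gone through, at the ends of the level range, as partners in a promoter pair, or for the 3' UTR word, and were picked after their values were seen. Alternatives were RLE, upper-quartile and library-size scaling, DESeq2 1.42.0, limma-voom (limma 3.58.1), no filter or a CPM of at least 1 in 3 libraries, a replicate block, each library left out, an adjusted p under 0.01, leaving out overlapping genes, and subunits by position. Leaving out genes with the 3' UTR word was added after the data had been seen. Summaries used Python 3.11.15 with numpy 2.4.6, pandas 2.3.3 and matplotlib 3.10.9.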

Additional observations from a re-analysis of the deposited data

How the results depend on the processing

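Over 14 alternative fits, 41 of the 53 called mitochondrial ribosomal protein genes kept their call in all (33 higher and 8 lower), 12 lost it in at least 1, 8 uncalled genes gained one, and no called gene changed sign. The count of higher genes ran from 34 to 44 over these fits and the stricter threshold. Counts of lower genes moved most. With upper-quartile factors, 17 members were lower, 12 of them of the large subunit. Large-subunit genes lower were 5 with library size alone, 5 with DESeq2 and 5 at an adjusted p under 0.01, and 4 to 9 with 1 library left out (4 without si-KNSTRN library 3 and 5 without si-KNSTRN library 2). All members lower were 9 at an adjusted p under 0.01 and 9 to 14 with 1 library left out, 9 without si-KNSTRN library 2 or 3. Among members without TGAGTA in the 3' UTR, an alternative chosen after seeing the data, 6 were lower, 5 of the large and 1 of the small subunit. The cause of these shifts was not tested, other than that the last setting holds fewer genes.

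The median log2 fold change of members was 0.19 with library size alone and 0.11 with upper-quartile factors, where the median of all genes tested was 0.03 and -0.05, and 0.11 to 0.16 with 1 library left out. The ratio of small-to-large sums, 0.963 as si-KNSTRN over si-NC, was 0.954 by position, 0.975 without overlapping genes and 0.957 to 0.968 with 1 library left out. Same-numbered libraries did not deviate together (correlations of -0.06, 0.05 and -0.03), and differently numbered ones gave -0.06 to 0.10. Such values cannot exclude that libraries were prepared in pairs, since a weak shared effect could leave them near 0. With the replicate number as a block, 38 members were higher and 13 lower, against 39 and 14 without it. The smallest changes called, MRPL20 at 1.10-fold and MRPL37 at 1.09-fold, lost the call in 6 and 5 fits.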
